A study of Homo sapiens with 8 samples.

Results

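Carbonic anhydrases are the enzymes that interconvert CO2 and water with bicarbonate and a proton. The genes described here are CA1, CA2, CA4, CA8, CA9, CA12 and CA13, measured in HEL cells, a human erythroleukaemia line. They were chosen by name, with their earlier measured levels in these samples in view. Of the 7 genes, 6 had at least 1 probe set that the platform annotation assigns to that gene alone, 17 probe sets in all. Each gene is represented by its probe set of highest mean log2 signal, and 5 of the 6 passed the filter on low signals and were among the 14162 genes tested. CA4 missed the filter, and CA9, which no probe set of the annotation names alone, was not analysed here.

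Gene expression was measured on 8 Affymetrix arrays, 2 in each of 4 groups, all of HEL cells grown in RPMI medium with serum. In the shRNA arm, a stable line carrying the lentiviral pLKO vector with 1 shRNA against PRMT5, an arginine methyltransferase, was set against a line with a scramble shRNA. In the drug arm, cells given 0.5 µM CEP701 for 16 h were set against cells given DMSO for 16 h. CEP701 is lestaurtinib, an inhibitor of JAK2, the kinase that is constitutively active in this line, and of FLT3. The study set out to compare the expression profile under CEP701 with that after PRMT5 knockdown. The labels do not say whether replicates came from separate cultures, and every p-value therefore reflects the spread between arrays, possibly technical, with 2 arrays a group limiting the precision.

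Red cells carry CA1 and CA2 in the cytosol, where they speed the loading of CO2 as bicarbonate, which the exchanger SLC4A1 then moves across the membrane. CA2 is the faster of those enzymes, CA1 is an abundant protein of adult red cells, and CA3 is best known from skeletal muscle. CA13 is another cytosolic enzyme. CA8 has lost the catalytic activity and binds the IP3 receptor in neurons. CA4 is tethered to the outer membrane by a lipid anchor, and CA9 and CA12 are transmembrane enzymes whose catalytic domains face outward and which hypoxia induces in many tumours.

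The arms stood apart across all genes. Over the 14162 genes, arrays of different arms correlated at Pearson's r of 0.804 to 0.845, against 0.954 to 0.978 for arrays of the same arm. PRMT5 had signals of 664 and 315 with PRMT5 shRNA, against 1794 and 984 with scramble, a log2 difference of -1.52 with adjusted p = 0.217 over all genes, and 1.56e-04 with a replicate block. All 7 monocyte and granulocyte markers were higher with scramble than with DMSO by the same test, with summed signals of 50484 to 78825 in the shRNA arm and 5538 to 9361 in the drug arm. Of them S100A9 lay at 9615 to 10109 in the shRNA arm and at 3.84 to 7.78 in the drug arm. Of 7 megakaryocyte markers 4 were higher with scramble, of 6 epithelial and fibroblast markers 3 were higher and 1 lower, and of 5 lymphocyte markers 2 were higher. These marker counts include S100A9, CD14, ELANE, MPO, KRT19, CDH1, EPCAM and CD3D, which passed the filter on low signals through the shRNA arm, where they are high. For those genes the counts describe levels and are no test. Of the 15 erythroid markers tested 5 were higher and 3 lower with scramble, in a comparison in which 45.8% of all genes passed. Embryonic globin HBE1 lay at 298 to 786 in the shRNA arm and at 9433 to 11721 in the drug arm, and the erythroid membrane protein EPB42 at 159 to 579 and 2685 to 3245. In the other direction, AHSP, which stabilises alpha globin, lay at 1185 to 6136 in the shRNA arm and at 57.2 to 87.5 in the drug arm. Adult beta globin, HBB, lay at 21286 to 48761 and 806 to 1613, and its scramble minus DMSO difference was 4.19, and 0.03 without the _x_at probe sets. The actin 5′ to 3′ signal ratio, a measure of RNA quality, was 0.141 to 0.335 in the shRNA arm and 0.116 to 0.199 in the drug arm. The part of these differences in what follows was not tested, and arm, vector, vehicle, time and culture cannot be told apart between the arms.

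CA1 was the carbonic anhydrase with the widest separation between the arms. Its representative probe set, 205950_s_at, had signals of 848 and 222 with PRMT5 shRNA and 478 and 163 with scramble. The same probe set had 25576 and 24666 with CEP701 and 22543 and 25366 with DMSO. All 4 shRNA-arm arrays lay far below all 4 drug-arm arrays, an order found for 20.5% of all genes, while the groups of an arm overlapped. Group means were 535 ± 442 with PRMT5 shRNA, 321 ± 222 with scramble, 25121 ± 643 with CEP701 and 23954 ± 1996 with DMSO (SD, n = 2 each). CEP701 was highest and scramble lowest by mean. Between the control groups, scramble was 82.3-fold lower than DMSO on the log2(signal + 10) scale, a log2 difference of -6.36. The mean log2 difference between the arms, -6.09, ranked 14 of 14162 genes from the lowest. The second CA1 probe set, 205949_at, stayed between 4.43 and 64.0 on all arrays and missed the filter, so the large separation rests on 1 probe set. In these bulk samples, fewer cells with the transcript and less transcript per cell cannot be told apart.

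CA13 was separated in the same direction. The signals at 231270_at were 75.5 and 212 with PRMT5 shRNA and 123 and 192 with scramble, and 2878 and 2540 with CEP701 and 3223 and 3729 with DMSO. Again the shRNA-arm arrays lay below every drug-arm array, with overlap between PRMT5 shRNA and scramble. Group means were 144 ± 96.7 with PRMT5 shRNA, 158 ± 48.9 with scramble, 2709 ± 239 with CEP701 and 3476 ± 357 with DMSO (SD, n = 2 each), with DMSO highest and PRMT5 shRNA lowest by mean. Scramble was 21.2-fold lower than DMSO (log2 -4.40). The other CA13 probe set, 235899_at, was dim, with 6.94 to 48.5 in the shRNA arm and 43.3 to 118 in the drug arm, and its scramble minus DMSO difference was only -0.88.

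CA2 did not follow them. Its single probe set, 209301_at, had signals of 2341 and 2450 with PRMT5 shRNA and 2485 and 3136 with scramble, and 2922 and 2655 with CEP701 and 2526 and 2535 with DMSO. All 8 arrays lay within 2341 to 3136, and the mean difference between the arms was -0.04 on the log2 scale, with rank 6511 of 14162. The group means were 2395 ± 77.5 with PRMT5 shRNA, 2810 ± 461 with scramble, 2788 ± 189 with CEP701 and 2531 ± 6.19 with DMSO (SD, n = 2 each). Scramble was highest by mean and PRMT5 shRNA lowest, and scramble overlapped with CEP701 and with DMSO.

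**Figure D1:**
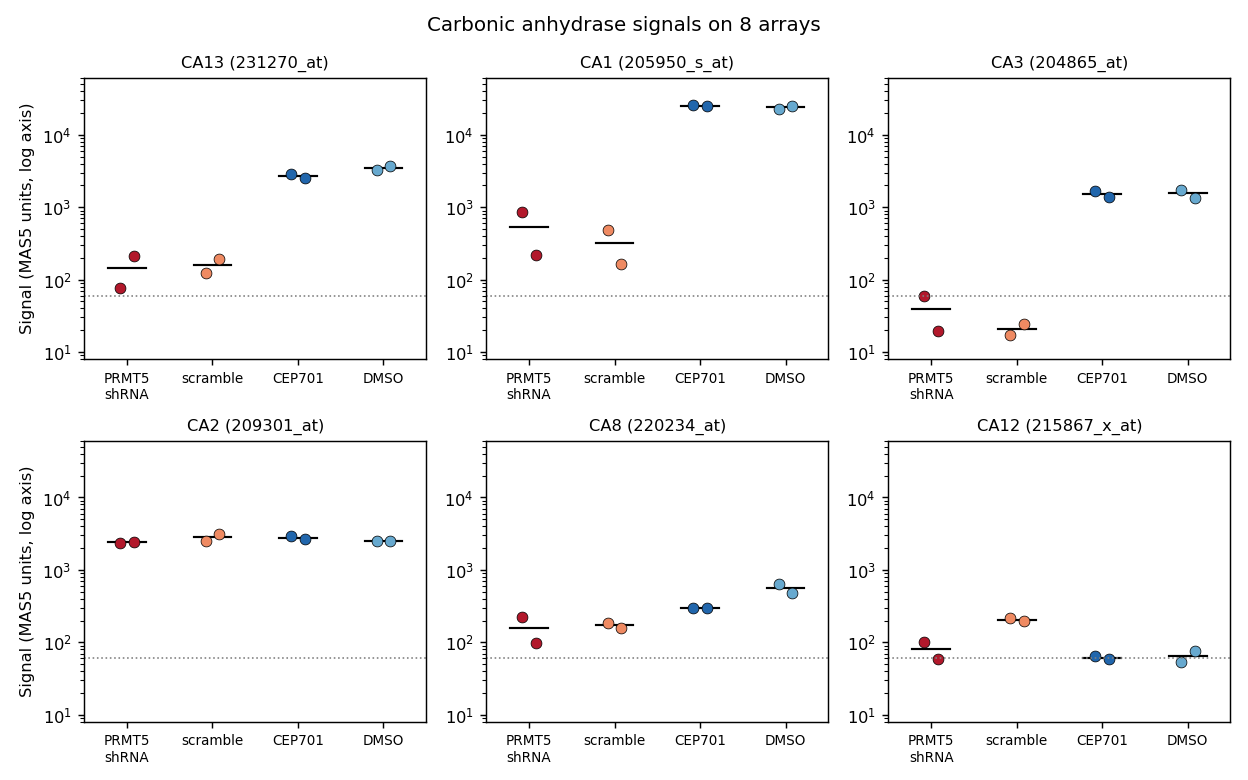
Signals of 6 carbonic anhydrase genes on 8 arrays (log axis, MAS5 units), with 1 point per array and a line at each group's mean; the dotted line is the median of all signals, 60.0. CA1, CA13 and CA3 are low on the 4 shRNA-arm arrays and high on the 4 drug-arm arrays, CA2 is level, CA8 is higher in the drug arm, and CA12 is highest with scramble.

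CA1, CA2 and CA13 are neighbours on chromosome 8, with CA3 between CA1 and CA2 in the GRCh38.p14 gene order. CA3, which is not one of the 7 genes, had signals of 60.2 and 19.4 with PRMT5 shRNA and 17.1 and 24.5 with scramble. In the drug arm it had 1677 and 1395 with CEP701 and 1739 and 1355 with DMSO. CA3 passed the filter through the drug arm, where it is high, and its shRNA-arm signals lay at or under 60.2, so no fold or test is given for it between the arms. In chromosomal order the mean log2 differences between the arms were -4.35 for CA13, -6.09 for CA1 and, beyond CA3, -0.04 for CA2. CA2 thus lay next to CA3 in the gene order, with a difference near 0.

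The measured genes around the cluster had smaller differences than CA13 and CA1. LRRCC1, a centrosomal protein, was at -0.89 on the shRNA arm minus drug arm scale, E2F5, a repressive E2F factor, at -2.04, and RBIS, a ribosome assembly factor, at -0.85. On the other side of the cluster PSKH2, a protein kinase homolog, was at -2.12. The annotated genes between CA2 and PSKH2 were not measured. E2F5 had signals of 182 and 218 with PRMT5 shRNA and 186 and 96.9 with scramble, against 732 and 705 with CEP701 and 682 and 699 with DMSO. RBIS was not uniform across its probe sets, whose other values were 0.14 and -0.38. In scramble minus DMSO, E2F5 passed the limma test (adjusted p = 2.26e-04), as did RBIS (adjusted p = 2.03e-03), and LRRCC1 (adjusted p = 0.0505) and PSKH2 (adjusted p = 0.189) did not. LRRCC1 passed in 11 of 21 alternatives, among them the replicate block in the shRNA arm (adjusted p = 0.0241) and in both arms (adjusted p = 0.0176), and PSKH2 in 3. RALYL, on the LRRCC1 side, missed the filter. Over chromosome 8 as a whole, 166 of 498 tested genes (33.3%) had all 4 shRNA-arm arrays below all 4 drug-arm arrays, against 20.5% of all genes, and the median difference was -0.22 against 0.05. The chromosome was examined after the values of the cluster had been seen.

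**Figure D2:**
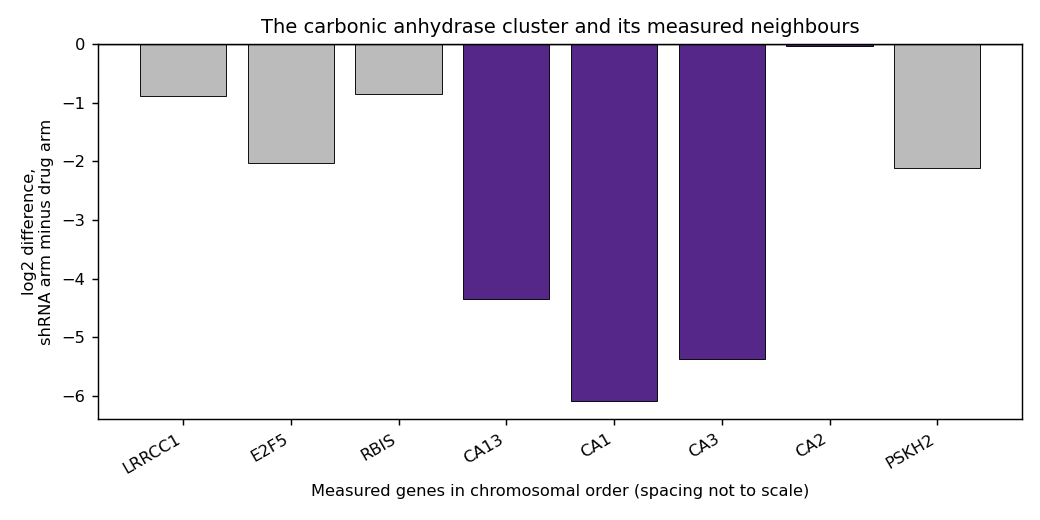
Mean log2 difference between the arms (shRNA arm minus drug arm, 4 arrays each) for the measured genes in and around the chromosome 8 cluster, in chromosomal order and not spaced to scale; purple bars are carbonic anhydrases and grey bars other genes. CA13 is at -4.35, CA1 at -6.09 and CA2 at -0.04, and the flanking genes lie between -0.85 and -2.12. The length of the CA3 bar is not read, because CA3 passed the filter through the drug arm, where it is high.

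Within the arms no difference of the cytosolic enzymes passed in the main fit. The 95% intervals of CA1 and CA13 left room for differences of more than 1 log2 unit. Of the 5 tested genes none passed limma's test with CEP701, where 5.78% of all genes passed, and 1, CA8, had an unadjusted p under 0.05. None passed with PRMT5 shRNA, where 0.148% of all genes passed, and 1, CA12, had an unadjusted p under 0.05. None passed in the difference of these effects, where 1.43% of all genes passed, and CA12 again was the 1 gene with an unadjusted p under 0.05. Between the controls, 4 of the 5 passed in scramble minus DMSO, 1 higher (CA12) and 3 lower (CA1, CA8 and CA13), where 45.8% of all genes passed, 25.5% higher and 20.3% lower. The share of higher genes among those that passed was 55.6%, and 38.4% with median scaling. That last count describes the values that were in view when the genes were chosen.

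CA1 differed by 0.07 ± 0.57 (SE) on the log2 scale between CEP701 and DMSO (95% interval -1.21 to 1.36; adjusted p = 0.954). Between PRMT5 shRNA and scramble it differed by 0.62 ± 0.57 (interval -0.67 to 1.90; adjusted p = 0.906). Arrays of the shRNA arm share a title suffix by replicate, and within those pairs the differences were 0.81 and 0.42. With the replicate block in the shRNA arm the CA1 difference passed (adjusted p = 0.0312), and with blocks in both arms it had adjusted p = 0.045. Its sign depended on single arrays, at -0.33 without PRMT5 shRNA replicate 1 and -0.13 without scramble replicate 2.

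CA13 differed by -0.36 ± 0.39 (SE) between CEP701 and DMSO (adjusted p = 0.619), although all CEP701 arrays lay below all DMSO arrays, as 62.0% of all genes had groups that did not overlap in this comparison. Fitted on the drug arm alone, the CA13 difference had adjusted p = 0.0464. Between PRMT5 shRNA and scramble it was -0.25 (adjusted p = 0.967), and the pairs went opposite ways, at -0.64 and 0.14. CA3 differed by -0.01 with CEP701 (adjusted p = 0.995) and by 0.57 with PRMT5 shRNA (adjusted p = 0.853).

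For CA2 the intervals were the narrowest of the family. CEP701 minus DMSO was 0.14 ± 0.16 (SE; interval -0.21 to 0.49; adjusted p = 0.631), and it was -0.08 with median scaling and -0.33 with poly-A control scaling. Both CEP701 arrays lay above both DMSO arrays, where 62.0% of all genes had groups that did not overlap. PRMT5 shRNA minus scramble was -0.22 ± 0.16 (interval -0.57 to 0.13; adjusted p = 0.860), with both PRMT5 shRNA arrays below both scramble arrays, as 30.2% of all genes had groups that did not overlap here. The difference of the effects, 0.36 ± 0.22, did not pass (adjusted p = 0.399).

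**Figure D3:**
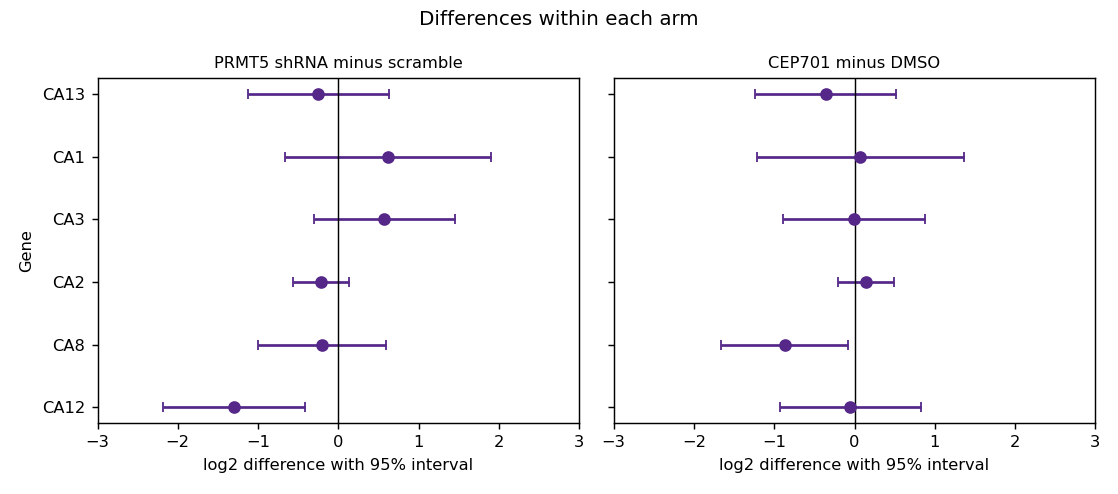
Log2 differences of 6 carbonic anhydrase genes within each arm (left, PRMT5 shRNA minus scramble; right, CEP701 minus DMSO), as points with 95% intervals from the limma fit of 2 arrays a group. Unadjusted intervals leave out 0 for CA12 in the left panel (-2.18 to -0.42) and CA8 in the right panel (-1.67 to -0.08), and neither passed after adjustment over all genes.

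CA8, the member without catalytic activity, was lower in the CEP701 samples at its brightest probe set. At 220234_at the signals were 222 and 97.9 with PRMT5 shRNA and 185 and 159 with scramble, and 297 and 302 with CEP701 and 643 and 481 with DMSO. Both CEP701 arrays lay below both DMSO arrays, where 62.0% of all genes had groups that did not overlap, and PRMT5 shRNA overlapped with scramble. Group means were 160 ± 87.6 with PRMT5 shRNA, 172 ± 18.4 with scramble, 300 ± 3.04 with CEP701 and 562 ± 115 with DMSO (SD, n = 2 each), in rising order. CEP701 minus DMSO was -0.87 ± 0.35 (SE) on the log2 scale, 1.83-fold lower, and did not pass over all genes (adjusted p = 0.172). It passed when only the drug arm was fitted (adjusted p = 7.87e-03) and with a replicate block in the shRNA arm (adjusted p = 0.0437) or both arms (adjusted p = 0.0484).

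A second CA8 probe set did not show that difference. At 238537_at the signals were 227 and 279 with CEP701 and 235 and 233 with DMSO, a log2 difference of 0.10 (adjusted p = 0.924 over probe sets). Both probe sets were lower in the shRNA arm, where 238537_at had 109 and 64.4 with PRMT5 shRNA and 127 and 38.8 with scramble. Scramble minus DMSO was -1.64 at 220234_at, 3.11-fold lower, and -1.58 at 238537_at. The third CA8 probe set, 1555445_at, ranged from 1.99 to 36.2 and missed the filter. PRMT5 shRNA minus scramble was -0.20 at 220234_at and did not pass (adjusted p = 0.973).

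CA12, the transmembrane enzyme, was measured near the filter's minimum, and its brightest signals were those of the scramble line. At 215867_x_at it had 102 and 57.9 with PRMT5 shRNA and 215 and 195 with scramble, and 64.9 and 57.9 with CEP701 and 53.9 and 75.4 with DMSO. Both scramble arrays stood above the other 6. Group means were 80.0 ± 31.2 with PRMT5 shRNA, 205 ± 14.8 with scramble, 61.4 ± 4.94 with CEP701 and 64.6 ± 15.2 with DMSO (SD, n = 2 each), and the 3 groups other than scramble overlapped. PRMT5 shRNA minus scramble was -1.30 ± 0.39 (SE), 2.46-fold lower, with -1.01 and -1.59 within the pairs, and did not pass over all genes (adjusted p = 0.456). CEP701 minus DMSO was -0.05 (adjusted p = 0.952). The difference of these effects, 1.25, did not pass either (adjusted p = 0.251), so the drug and knockdown effects on CA12 were not shown to differ.

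The CA12 promoter is printed because CA12 is the measured member known as a hypoxia-induced gene. The window runs from 250 bases before to 50 after the annotated start, chr15:63381797-63382096 on the minus strand (RefSeq, GRCh38.p14), and the table of promoter sequences held 2 of the 7 genes. Capitals mark matches to GCGTG on the reverse strand (CACGC), a core of the hypoxia response element, which were searched on both strands together with ACGTG.
CA12: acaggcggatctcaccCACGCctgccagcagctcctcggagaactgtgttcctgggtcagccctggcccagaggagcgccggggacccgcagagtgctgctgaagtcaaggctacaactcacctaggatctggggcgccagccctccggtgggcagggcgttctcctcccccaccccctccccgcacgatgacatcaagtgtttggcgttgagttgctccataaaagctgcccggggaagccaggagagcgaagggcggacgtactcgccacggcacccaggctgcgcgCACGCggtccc
The matches begin at -234 and 40 relative to the start, and no ACGTG was found. Among 35116 promoter windows of this length, 36.5% hold GCGTG, 21.4% hold ACGTG and 48.4% hold either, so a match is common and describes the letters only.

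The CA12 probe sets did not all go the same way. Of 7 probe sets, 3 passed the filter, and the mean was lower with PRMT5 shRNA than with scramble at 5. Both PRMT5 shRNA arrays were below both scramble arrays at 4 and above them at 1, 241230_at, a dim probe set with a highest signal of 42.6. Of all genes, 30.2% had groups that did not overlap in this comparison. Among the 4 lower probe sets, 203963_at and 204508_s_at missed the filter. At 214164_x_at the signals were 13.5 and 68.2 with PRMT5 shRNA and 245 and 132 with scramble, a log2 difference of -2.15 (adjusted p = 0.623 over probe sets). At 210735_s_at they were 83.0 and 97.5 with PRMT5 shRNA and 47.4 and 102 with scramble, a difference of 0.32. The suffix _x_at marks probe sets whose probes may also match other sequences, and 210735_s_at was the brightest CA12 probe set without it. Without the _x_at probe sets the CA12 difference between PRMT5 shRNA and scramble therefore had the opposite sign. Scramble minus DMSO was 1.54 at 215867_x_at, 1.70 at 214164_x_at and 0.45 at 210735_s_at. At 214164_x_at and 210735_s_at it did not pass over probe sets (limma adjusted p = 0.0879 and 0.486). Of the 7 probe sets 6 had a higher mean with scramble than with DMSO, and 241230_at, at -1.84, was the 1 lower. At 215867_x_at the difference was 1.33 without DMSO replicate 1 and no longer passed.

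**Figure D4:**
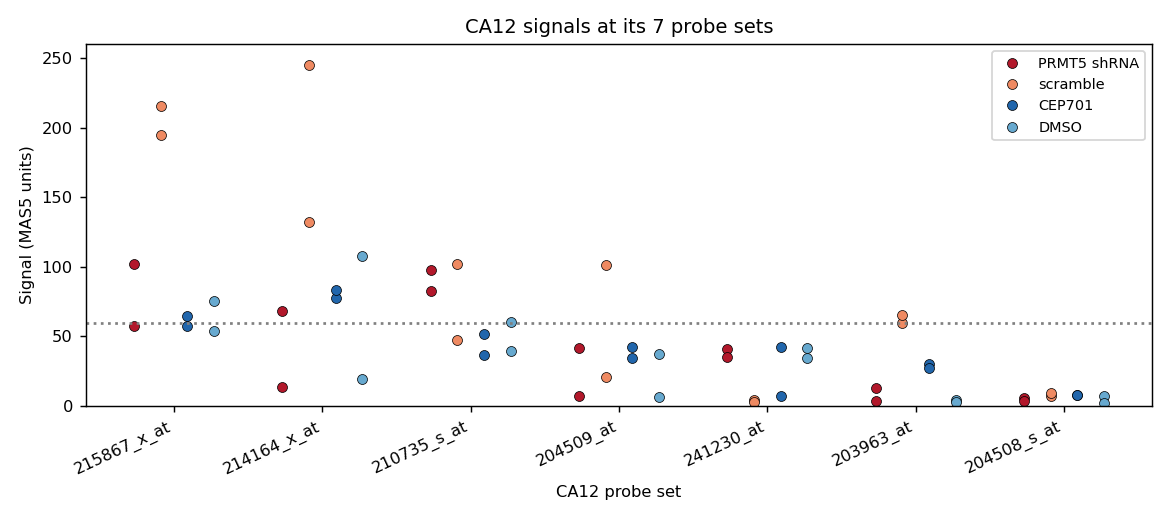
Signals of CA12 (MAS5 units, linear axis) at its 7 probe sets, ordered by mean log2 signal, with 1 point per array coloured by group; the dotted line is the median of all signals, 60.0. Scramble is highest at 215867_x_at and 214164_x_at and overlaps PRMT5 shRNA at 210735_s_at, and the other 4 probe sets are mostly under the line.

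Other genes that HIF, the hypoxia-inducible factor, is known to induce were set beside CA12. Of 20 such genes 19 were tested, and 4 fell and none rose with PRMT5 shRNA, where 0.148% of all genes passed, with a list median of -1.29 against 0.00 for all genes. AK4, a mitochondrial adenylate kinase, had 635 and 780 with PRMT5 shRNA and 3475 and 5075 with scramble (log2 -2.56; adjusted p = 3.29e-03). BNIP3, a mitophagy receptor, had 1689 and 2871 with PRMT5 shRNA and 8217 and 11079 with scramble (log2 -2.11; adjusted p = 0.0136). P4HA1, a collagen prolyl hydroxylase, was at -1.89 (adjusted p = 0.0136). The BNIP3 and P4HA1 calls were lost without any 1 drug-arm array and without scramble replicate 2. They were also lost with eBayes without trend and when only the shRNA arm was fitted. The AK4 call was lost without trend (limma adjusted p = 0.0734) and when only the shRNA arm was fitted (adjusted p = 0.086). The CA12 difference at 215867_x_at, -1.30, was close to the list's median, and it did not pass. At 210735_s_at, the brightest CA12 probe set without the _x_at suffix, the difference was 0.32, of the opposite sign. With CEP701 2 of the 19 rose and 2 fell (median -0.17), where 5.78% of all genes passed. Between the controls 14 were higher with scramble than with DMSO and none lower (median 1.62), where 25.5% of all genes were higher. ADM, a vasodilator peptide, had 1438 and 2118 with scramble and 42.7 and 58.0 with DMSO. CA12 and these genes share the same scramble arrays in both comparisons.

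CA4 was close to background on all arrays. Its probe set 206209_s_at ranged from 10.9 to 52.8 and 206208_at from 3.54 to 46.3, and no array reached the filter's minimum of 60.0. Of the members inside the filter, CA12 was the nearest to it, and its representative exceeded that minimum on 5 of 8 arrays.

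Apart from CA3, described above, the carbonic anhydrases outside the 7 genes were dim. Of 8 such genes measured, CA3, CA5B, CA6 and CA11 were tested. CA5B, CA6 and CA11 did not pass in any contrast. CA5B, a mitochondrial enzyme, ranged from 19.99 to 82.1, CA6, the secreted form of saliva, from 23.5 to 114, and CA11, a related protein without catalytic activity, from 66.9 to 166. CA5A, CA7, CA10 and CA14 missed the filter, and their highest signal was 65.7.

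Carbonic anhydrases work beside transporters of their substrates and products. Of 18 bicarbonate and anion transporters 10 were tested. In scramble minus DMSO 4 were higher and 1 lower, a share close to the 45.8% of all genes that passed, with a median of 0.49 against 0.11 for all genes. SLC4A4, a sodium bicarbonate cotransporter, was the lower one in this count, with 39.3 and 35.3 with PRMT5 shRNA and 31.9 and 10.9 with scramble, against 201 and 181 with CEP701 and 130 and 124 with DMSO. It passed the filter through the drug arm alone, which the count rests on, so no size or test is given for it. SLC26A11, a lysosomal and membrane anion transporter, was higher by 3.18 (adjusted p = 0.0105; DMSO signals of 9.35 and 98.1), and SLC4A8, a sodium-driven chloride bicarbonate exchanger, by 1.22 (adjusted p = 7.65e-03). The SLC26A11 call was lost without DMSO replicate 1 or scramble replicate 2. The SLC4A8 call was lost without DMSO replicate 2 and with poly-A control scaling (0.91; adjusted p = 0.0698). SLC4A1, the red-cell exchanger, had 441 and 144 with PRMT5 shRNA and 164 and 66.9 with scramble, and 22.2 and 75.7 with CEP701 and 11.7 and 51.2 with DMSO. None of the 10 passed in either arm. With CEP701 2 had an unadjusted p under 0.05, SLC26A6 at 2.09 (adjusted p = 0.0558) and SLC4A7 at -0.81 (adjusted p = 0.0612), and with PRMT5 shRNA 1 did, SLC4A2 at -0.94 (adjusted p = 0.370). SLC26A6 and SLC4A7 passed with the replicate block in both arms (adjusted p = 0.020 and 3.31e-03).

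Of 12 proton and lactate transporters 6 were tested, and 2 were higher with scramble than with DMSO, where 25.5% of all genes were higher and 20.3% lower, the proton channel HVCN1 at 2.14 (adjusted p = 4.63e-04) and BSG, a chaperone of lactate transporters, at 1.25 (adjusted p = 1.21e-03). Of 7 water and gas channels 5 were tested, with 2 higher and 1 lower against the same background. AQP3, a water and glycerol channel, was higher by 2.70 (adjusted p = 1.85e-04). AQP9, a channel for water and small solutes, had 203 and 273 with PRMT5 shRNA and 555 and 530 with scramble. On the drug-arm arrays it stayed between 5.21 and 16.4, so it passed the filter through the shRNA arm alone. The count of 2 higher channels includes AQP9 and for that gene describes levels only. No size or test is given for AQP9 between the arms. RHAG, a gas channel of the red-cell membrane, was lower, with 8158 and 6557 with PRMT5 shRNA and 6516 and 8316 with scramble, against 22215 and 20886 with CEP701 and 18040 and 17475 with DMSO (log2 scramble minus DMSO -1.27; adjusted p = 1.96e-04). In neither arm did a gene of these lists pass, and AQP9 with PRMT5 shRNA was the 1 gene with an unadjusted p under 0.05. PTPRG, a receptor phosphatase with a carbonic anhydrase-like domain, had 27.7 and 11.7 with PRMT5 shRNA and 22.3 and 19.1 with scramble. It had 74.0 and 39.8 with CEP701 and 86.8 and 53.8 with DMSO. PTPRG thus passed the filter through the drug arm alone, and no size or test is given for it between the arms. Among the erythroid markers EPOR, the erythropoietin receptor, rose with CEP701 by 1.09 (adjusted p = 0.029), and none passed with PRMT5 shRNA. The EPOR call was lost in 9 of 21 alternatives, namely without any 1 of the 4 drug-arm arrays, with quantile normalization, with median scaling, with poly-A scaling (0.63; adjusted p = 0.159), with the mean of probe sets (0.41; adjusted p = 0.319) and without the trend.

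For each tested gene the 3 genes of most similar pattern were found by Pearson's r of log2 signal over the 8 arrays. The arrays fall into the 2 arms, so for CA1, CA13 and CA8 a high r reflects that split. CA2 was level between the arms and CA12 was highest with scramble, so their r follow other differences between arrays. Each r is among the highest of all tested genes over 8 arrays, and r takes no account of the size of a difference. For CA1 they were PIP5K1B, SRPRA and DNAJC6, with r of 0.997 to 0.998. PIP5K1B had a scramble minus DMSO difference of only -0.88, against -6.36 for CA1. For CA13 they were NT5C3B, GLRA3 and SPTLC2, with r of 0.996 to 0.997, and for CA8 CLPB, MRTO4 and CD320, with r of 0.985 to 0.990. MRTO4 had 1935 and 1918 with CEP701 and 4592 and 4560 with DMSO, in the same order as CA8 at its brightest probe set. For CA2 they were ITGA2B, GPR155 and COLCA1, with r of 0.933 to 0.944, and for CA12 ZNF766, CCL20 and AHNAK2, with r of 0.953 to 0.962.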

How the data were processed

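RNA of 8 HEL samples (200 ng each, per the labels) was hybridized to Affymetrix arrays with 54675 probe sets. The deposited signals are linear and come from MAS5 in Affymetrix Expression Console, per the submitters' processing notes, which name no version. A genome build is not given in the sources used here. The mean without the lowest and highest 2% was 499.9 on every array. Probe sets were named from the platform annotation: 41097 name 1 gene, 1801 several and 11777 none; 41043 were matched by Entrez ID to GRCh38.p14 gene symbols and 54 kept as given.

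The signals were analysed as log2(signal + 10). Probe sets whose signal exceeded 60.0, the overall median, on 2 or more arrays were kept (32646, of which 26725 name 1 gene), and each gene took its probe set of highest mean. All 4 groups were fitted in 1 model with limma 3.58.1 (lmFit, eBayes with trend; R 4.3.3, with the package data.table in version 1.17.8), with 4 residual and 5.37 prior degrees of freedom, Benjamini-Hochberg adjustment over 14162 genes and a threshold of 0.05. Folds include the added 10. Levels of different probe sets were not set against each other. The fit was tested on simulated data. The members, lists and alternatives were chosen with earlier results of these data known. Named were all members and other carbonic anhydrases, up to 3 genes per companion list and contrast by lowest unadjusted p (SLC4A1 also for its role), cluster neighbours, the 3 most similar genes per member, and markers chosen after their values were seen (S100A9, HBE1, EPB42, AHSP, HBB). Deviations from group means correlated between shRNA arrays sharing a title suffix (r = 0.323) and not between drug arrays sharing a number (r = -0.0115), so the suffix was taken to pair the shRNA arrays.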

Additional observations from a re-analysis of the deposited data

Results flagged for a closer look

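The CA2 differences had opposite signs in the arms in the main fit, and neither passed. Both CEP701 arrays lay above both DMSO arrays, where 62.0% of all genes had groups that did not overlap. Both PRMT5 shRNA arrays lay below both scramble arrays, where 30.2% of all genes did not overlap. CEP701 minus DMSO turned to -0.08 with median scaling and to -0.33 with poly-A control scaling. The difference of the effects was 0.36 on the log2 scale. It was tested as an interaction in the limma fit and did not pass (adjusted p = 0.399), and with poly-A control scaling it was -0.13. Group outliers could not be assessed with 2 arrays a group.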

How the results depend on the processing

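Between the controls, CA1, CA8 and CA13 stayed lower and past the threshold in all alternatives at their representative probe sets, and CA12 was at 0.45 without the _x_at probe sets and did not pass. For CEP701 minus DMSO, 819 genes passed, against 489 with no filter, 455 with quantile normalization, 537 with the mean of probe sets, 167 with eBayes without trend, 3155 and 3040 with the replicate block in the shRNA arm and in both arms, 3492 fitted on its own groups, and 6 to 1236 without single arrays. For PRMT5 shRNA minus scramble, 21 genes passed, against 32 with 50 added, 0 without trend or on its own groups, 247 and 212 with the blocks, and 3 to 27 without single arrays. For the difference of the effects, 203 passed, against 132, 115 and 117 with no filter, with quantile normalization and with averaged probe sets, 124 with median and 42 with poly-A scaling, 0 without trend, 2456 and 2296 with the blocks, and 0 to 823 without single arrays. Of the members, the blocks passed 1 with CEP701 (CA8) and 1 with PRMT5 shRNA (CA1), and fitting the drug arm alone passed 2 (CA8 and CA13).

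All sign changes concerned differences that did not pass in the main fit. Among them, CA1 with PRMT5 shRNA and CA8 with CEP701 passed with the replicate blocks. CA8 and CA13 with CEP701 passed when the drug arm alone was fitted. These calls therefore had the opposite sign in other settings. Median and poly-A scaling moved the median of all genes in CEP701 minus DMSO to -0.12 and -0.34, against 0.10, and gave CA1 -0.14 and -0.40 and CA2 -0.08 and -0.33, with CA6 at -0.08 under poly-A scaling. In scramble minus DMSO, where both moved the median to -0.20, against 0.11, they gave CA2 -0.17 and -0.18 and CA11 -0.24 and -0.22, with CA11 at -0.31 under quantile normalization. Poly-A scaling gave CA2 -0.13 in the difference of the effects. The mean of probe sets gave CA12 0.15 with CEP701, CA8 0.00 with PRMT5 shRNA and CA13 0.29 in the difference. In the drug arm alone CA12 was at 0.62, as at its probe set 214164_x_at. The other probe sets of CA8 and CA13 gave 0.10 and 0.05 with CEP701, and those of CA8 and CA12 gave 0.20 and 0.32 with PRMT5 shRNA. In the difference, those of CA12 and CA13 gave -0.44 and 0.68. Leaving out the _x_at probe sets gave CA12 0.32 with PRMT5 shRNA and -0.44 in the difference. CA11 was at -0.01 with PRMT5 shRNA with 50 added and with median scaling.

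Without single arrays, CEP701 minus DMSO ranged from -0.01 to 0.16 for CA1, -0.26 to 0.16 for CA12, -0.18 to 0.17 for CA3, -0.43 to 0.23 for CA5B and -0.04 to 0.89 for CA11. PRMT5 shRNA minus scramble ranged from -0.33 to 1.56 for CA1, -0.75 to 0.35 for CA8, -0.94 to 0.44 for CA13, -0.05 to 1.2 for CA3 and -0.37 to 0.39 for CA11. The difference of the effects ranged from -1.49 to 0.40 for CA1 and -0.80 to 0.58 for CA13. Scramble minus DMSO ranged from -0.03 to 0.31 for CA2, -0.98 to 0.25 for CA5B and -0.30 to 0.45 for CA11. Where leaving out an array leaves 1 in a group, that array is assumed to vary like the others. Causes of these changes were not tested. With 2 arrays a group, and CA12, CA4 and the shRNA-arm CA3 signals near the filter's minimum, small differences of these genes were not detectable. The number shared by drug arrays marks no known pair, and pairing them changed no member call beyond those of the block in the shRNA arm.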
